A study of Homo sapiens with 12 samples.

Results

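The nuclear-encoded subunits of the respiratory chain and of ATP synthase were described in HK2, a cell line derived from human proximal tubule epithelium, with and without knockdown of FLCN. The members are the protein-coding genes of the count table whose GENCODE 29 symbols begin with NDUFA, NDUFB, NDUFC, NDUFS or NDUFV and a number, with UQCR, with COX4 to COX8 and a letter, or with ATP5, together with SDHA to SDHD and CYC1. The rule used gene names only and found 91 of the 58288 gene IDs, of which 39 belong to complex I, 4 to complex II, 10 to complex III, 17 to complex IV and 21 to complex V. The genes of the mitochondrial genome are not members. NDUFA4 is counted with complex I by its name, although its protein is now assigned to complex IV. ATP5S, NDUFC2-KCTD14 and ATP5MF-PTCD1 entered by symbol as well, and the last 2 are readthrough genes that join a subunit gene to its neighbour.

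RNA was sequenced from 4 groups of 3 libraries each. Short-term cells had gone through fewer than 30 passages and long-term cells through more than 120, as the labels give it, while the methods set a lower limit for long-term cells. At each time the cells carried a short hairpin RNA (shRNA) against FLCN, which lowers the level of the matching mRNA, or a nontarget shRNA, and per the methods the knockdown lines were stable clones. All were grown in DMEM with serum. The labels call the controls shControl with genotype WT and number the 3 libraries of a group as biological replicates, without saying which clone or culture each came from. What the hairpin did and what a given clone brought with it therefore cannot be told apart, and p-values measure the spread between these libraries only.

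Complexes I to IV pass electrons from NADH and succinate to oxygen across the inner mitochondrial membrane, and complexes I, III and IV pump protons as they do so. Complex V, the ATP synthase, uses the proton gradient to make ATP. Most subunits are made from nuclear genes and imported, and a small core is made inside the organelle, so complexes I, III, IV and V draw on both genomes, whereas complex II is wholly nuclear-encoded. Proximal tubule cells depend heavily on this pathway for solute reabsorption. FLCN is the gene of Birt-Hogg-Dube syndrome, which brings a risk of kidney tumours that are often rich in mitochondria.

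FLCN itself was at 12.7, 16.7 and 16.5 CPM (counts per gene scaled to the same library total) in the short-term nontarget libraries and at 5.95, 6.58 and 5.66 CPM after short-term knockdown. In long-term cells it was at 9.92, 11.9 and 12.2 CPM in nontarget libraries and at 6.70, 6.31 and 7.97 CPM after knockdown. The groups did not overlap at either time. The log2 fold change was −1.33 ± 0.18 (SE) short-term and −0.70 ± 0.18 long-term, with adjusted p = 0.000112 and 0.00611 in edgeR's quasi-likelihood test. Between the times the effect differed by 0.63 with adjusted p = 0.118.

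Libraries held 5825779 to 8991051 counts, and the members made up 0.896 to 1.18% of them. Of 15 kidney epithelium markers 8 passed the filter on low counts, among them KRT8, KRT18 and PAX8, while LRP2 and HNF4A were at 0 in every library and AQP1, ANPEP and CUBN were at most 0.442 CPM in any group mean. Of 6 fibroblast markers 3 passed, and their list summed to 24.6 to 56.8 CPM over the libraries. Markers moved in the long-term comparison too: LUM (3.69 ± 0.39), CDH16 (1.44 ± 0.18) and GGT1 (0.85 ± 0.16) rose on the log2 scale and PDGFRB (−3.56 ± 0.45), PAX8 (−0.61 ± 0.10) and EPCAM (−0.59 ± 0.19) fell, and their part in the members' rise was not tested. No endothelial (4) or leukocyte (5) marker passed, with sums of at most 2.20 and 1.32 CPM, and KDR, PTPRC and CD3E were at 0.

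Of the 91 members, 80 passed the filter and were tested. Levels were compared between genes in TPM, counts divided by the length of the merged exons and scaled to the same total in each library, and a gene with long, little-used exons is understated on this scale. ATP5F1B, the catalytic beta subunit of ATP synthase, had the highest level of any member with 1751 ± 144 TPM (SD over 12 libraries). NDUFS5, an accessory subunit of complex I, was at 1239 ± 204 TPM, with ranges that did not meet. With the length of the principal transcript instead, ATP5F1B was still the highest (2211 TPM), but COX4I1, at 288 TPM on merged exons, reached 1583 TPM and passed NDUFS5 (1239 TPM), so ranks below the first depend on the length used. On merged exons the median of the members tested was 126 TPM. NDUFC2-KCTD14, COX7B2, COX8C and ATP5MGL had no count in any library, which allows up to 3 counts over the 12 libraries or 0.0357 CPM. The other 7 members that were not tested, NDUFA4L2, NDUFA7, NDUFV2, COX4I2, COX6A2, COX6B2 and COX7A1, had at most 82 counts in all.

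Complex IV has subunits with a ubiquitous isoform and a second one used in muscle, lung, testis or under low oxygen, and in HK2 cells the ubiquitous one had the higher level in each of 6 pairs. COX4I1 was at 288 ± 15.5 TPM against 1 count in 12 libraries for COX4I2. COX6A1 was at 135 ± 14.6 TPM against 3.35 ± 2.08 TPM for COX6A2, and COX6B1 at 404 ± 36.8 TPM against 0.187 ± 0.207 TPM for COX6B2. COX7A2 was at 240.0 ± 30.0 TPM, whereas COX7A1 had 7 counts in all. In the same way COX7B (226 ± 60.8 TPM) and COX8A (520.2 ± 55.5 TPM) were read and their partners COX7B2 and COX8C were not. NDUFA4 was at 214 ± 39.9 TPM and NDUFA4L2, its paralog induced by low oxygen, at 1.16 ± 0.74 TPM. NDUFA4L2 had 10 counts over the short-term nontarget libraries, 10 after short-term knockdown, 24 in long-term nontarget libraries and 38 after long-term knockdown, too few to be tested.

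For some subunits the annotation limits what their counts mean. Other annotated genes on the same strand covered 82.9% of the exon bases of the principal transcript of NDUFV2, 75.9% of NDUFA7, 71.7% of NDUFB8, 70.3% of ATP5PO and 67.0% of NDUFA11, and reads in such stretches fit 2 genes. NDUFV2, which carries an iron-sulfur cluster of complex I, had 61 counts in 12 libraries and NDUFA7 had 3. The levels of these genes are uncertain, and so are those of ATP5MF (share 46.2%), NDUFA13 (44.1%), COX6B2 (37.0%), COX8A (34.5%) and COX6A1 (30.6%). What such sharing did to the counts was not tested. The kit keeps no strand, and on either strand the share was also high for NDUFB2 (83.4%), ATP5ME (49.9%), NDUFB11 (45.8%) and NDUFA1 (44.5%), whose levels and changes are uncertain for the same reason. UQCRHL is a near-identical copy of UQCRH, and reads of the pair may be split between them. The strand setting of the counting is not given in the sources used here.

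Summed over the 91 members, the mRNA level was 9428, 9422 and 9161 CPM in short-term nontarget libraries and 10956, 10221 and 9390 CPM after short-term knockdown. It was 9354, 9200 and 8799 CPM in long-term nontarget libraries and 12221, 11476 and 11361 CPM after long-term knockdown. The long-term knockdown libraries lay above the other 9, and the third short-term knockdown library lay within the range of the short-term nontarget group. The ratio of group means was 1.28 long-term and 1.09 short-term.

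All 5 complexes took part in the long-term difference. Complex I summed to 2272 ± 62.9 CPM (SD, n = 3) in long-term nontarget and 2952 ± 118 CPM in long-term knockdown libraries, a ratio of 1.30. The ratio was 1.37 for complex II (472 ± 26.5 against 646 ± 11 CPM), 1.30 for complex III (1267 ± 24.9 against 1642 ± 62.6 CPM), 1.31 for complex IV (1512 ± 53.1 against 1976 ± 136 CPM) and 1.24 for complex V (3594 ± 161 against 4470.4 ± 223 CPM). In complex II the long-term log2 fold change of the 4 members ran from 0.23 to 0.62, and only the highest, SDHA, was called in the test below. In short-term cells the ratios were 1.04, 1.24, 1.07, 1.12 and 1.10 for complexes I to V. No test was made of these sums. In bulk libraries of this kind, a shift in the share of cells with high levels and more of these mRNAs in each cell cannot be told apart.

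After long-term knockdown 37 of the 80 members tested rose and 0 fell at an adjusted p below 0.05. Of all 13959 genes tested, 13.7% rose and 15.8% fell in this comparison. At an unadjusted p below 0.05, 45 members were higher and 0 lower, and DESeq2 called 37 higher and 0 lower. The calls were spread over all complexes, with 16 of 35 members tested in complex I, 1 of 4 in complex II, 6 of 10 in complex III, 5 of 11 in complex IV and 9 of 20 in complex V. The log2 fold change was above 0 for 78 of the 80 members, against 50.1% of all genes, and its median was 0.31 over the members and 0.00 over all genes. The 2 exceptions were ATP5ME and ATP5S, neither of which passed the threshold. Of the 37 calls, 21 held in all 6 fits that left out a library, and the count ranged from 26 without the first to 41 without the third long-term knockdown library. Among genes with a mean of at least 500 counts, 27 of 51 members (52.9%) rose, against 17.4% of all 3089 such genes.

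**Figure D1:**
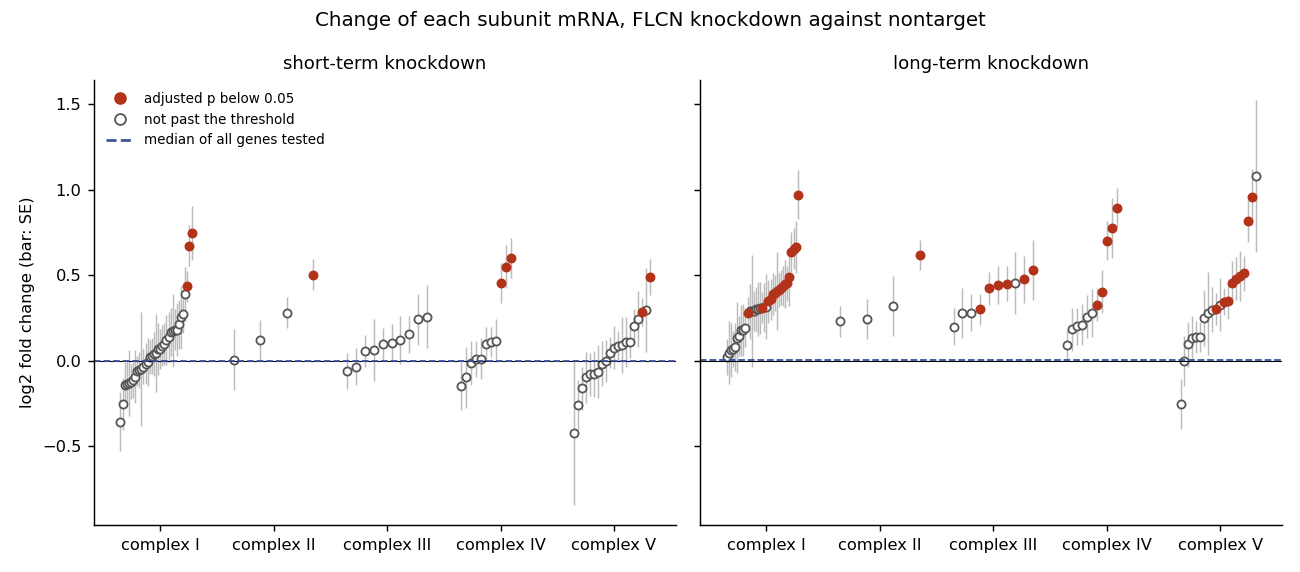
Log2 fold change of each member tested (vertical axis, bars are SE) after short-term (left) and long-term (right) FLCN knockdown, ordered by size within each complex. Filled points passed an adjusted p of 0.05 (9 short-term, 37 long-term), the dashed line is the median of all genes tested, and long-term 78 of 80 points lie above 0.

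The 5 largest rises came from complexes I, IV and V. NDUFB5, an accessory subunit of the membrane arm of complex I (GRCh38 chr3:179604690-179627647), was at 91.7, 70.8 and 65.6 CPM in long-term nontarget libraries and at 173, 148 and 125 CPM after knockdown. ATP5PD, subunit d of the peripheral stalk (chr17:75038863-75046985), was at 87.9, 92.5 and 67.8 CPM against 173, 167 and 141 CPM. In both, every knockdown library stood above every nontarget library. The log2 fold change was 0.97 ± 0.14 for NDUFB5 (adjusted p = 5.97e-05) and 0.96 ± 0.16 for ATP5PD (adjusted p = 0.000264).

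COX7A2L, which helps join complexes III and IV into supercomplexes, was at 104, 89.2 and 88.6 CPM without and at 203, 167 and 155 CPM with long-term knockdown. ATP5MG, subunit g of the membrane sector of ATP synthase, was at 126, 109 and 99.2 CPM against 214, 196 and 178 CPM. COX7B, a small subunit of complex IV, was at 205, 151 and 152 CPM against 356, 277 and 236 CPM. These groups did not overlap either, although the first nontarget library of COX7B, at 205 CPM, came close to the third knockdown library, at 236 CPM. The log2 fold changes were 0.90 ± 0.12, 0.82 ± 0.12 and 0.77 ± 0.18, with adjusted p = 1.39e-05, 7.91e-05 and 0.00343. The calls of all 5 genes held without any 1 library.

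Core subunits of the naming rule, chosen for their place in each complex, were given whatever their change, and some passed. SDHA, the flavoprotein of complex II that oxidises succinate, was at 229, 239.6 and 244 CPM in long-term nontarget libraries and at 346, 355 and 394 CPM after knockdown (log2 fold change 0.62 ± 0.09, adjusted p = 4.99e-05). UQCRC1, a core protein of complex III, was at 239, 268 and 277 CPM against 346, 318 and 388 CPM (0.42 ± 0.10, adjusted p = 0.0029). In both genes the knockdown libraries were all higher. ATP5F1B, at 1070.2, 1069 and 1043 CPM against 1354, 1353 and 1335 CPM, rose by 0.35 ± 0.08 with adjusted p = 0.00327.

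COX5A, a matrix-side subunit of complex IV, rose by 0.33 ± 0.10 (adjusted p = 0.0164), from 93.4, 99.3 and 94.7 CPM to 121, 115 and 124 CPM. UQCRFS1, the Rieske iron-sulfur protein of complex III, rose by 0.30 ± 0.09 (adjusted p = 0.0191), from 119, 122 and 115 CPM to 148, 134 and 156 CPM. Neither pair of groups overlapped, but both calls rest on single libraries. COX5A lost its call in 2 of 6 fits that left out a library, with an adjusted p of up to 0.056 without the first long-term knockdown library, and UQCRFS1 in 3 of 6, with up to 0.0693 without the third long-term nontarget library.

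Other subunits of that rule did not pass the threshold. The log2 fold change was 0.19 ± 0.11 for NDUFS1, 0.29 ± 0.12 for NDUFV1, which binds NADH, 0.23 ± 0.09 for SDHB, 0.28 ± 0.15 for CYC1, 0.09 ± 0.09 for COX4I1 and 0.14 ± 0.09 for ATP5F1A, the alpha subunit of ATP synthase. Their adjusted p ranged from 0.0686 to 0.496. CYC1 was at 205, 226 and 265 CPM in nontarget and at 248, 239 and 358 CPM in knockdown libraries, so its groups overlapped. SDHB was at 99.0, 95.2 and 89.0 CPM against 110.4, 112 and 109.7 CPM, without overlap. With the replicate number as a block, which pairs the long-term libraries, NDUFV1 and SDHB passed with adjusted p = 0.0345 and 0.033.

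Among the ubiquitous isoforms, COX6A1 (0.26 ± 0.12), COX6B1 (0.20 ± 0.11), COX7A2 (0.28 ± 0.14) and COX8A (0.21 ± 0.12) did not pass long-term, and COX7A2 passed with the replicate block (adjusted p = 0.0251). NDUFA4 did, at 186, 169 and 162 CPM against 331, 273 and 215 CPM (0.67 ± 0.15, adjusted p = 0.00334). Its 3 knockdown libraries were all above the nontarget ones and differed among themselves by more than those did.

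Stretches of promoter are shown to place the motif shares that follow. In complexes I, III, IV and V the member of largest rise after long-term knockdown was taken whose 100 bases before a start in RefSeq hold the letters of the NRF1 or of the ETS family motif exactly, both being factors known to act on respiratory chain genes. No called member of complex II met this rule. RefSeq starts can lie inside the gene as GENCODE 29 draws it, as those of all 4 genes shown do, and ATP5MC2 has several. Capitals mark the match, and the bases are from RefSeq (GRCh38.p14), written 5′ to 3′ on the strand of the gene. NDUFS6 is at chr5:1801307-1801406 on the plus strand, UQCRQ at chr5:132866542-132866641 on the plus strand, COX5B at chr2:97645962-97646061 on the plus strand and ATP5MC2 at chr12:53676084-53676183 on the minus strand.
NDUFS6: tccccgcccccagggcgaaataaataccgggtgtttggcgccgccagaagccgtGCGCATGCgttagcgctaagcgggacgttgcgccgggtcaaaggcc
UQCRQ: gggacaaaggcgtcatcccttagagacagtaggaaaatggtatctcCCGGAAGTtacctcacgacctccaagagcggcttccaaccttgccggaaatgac
COX5B: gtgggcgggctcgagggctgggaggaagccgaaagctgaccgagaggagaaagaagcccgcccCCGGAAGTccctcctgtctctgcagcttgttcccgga
ATP5MC2: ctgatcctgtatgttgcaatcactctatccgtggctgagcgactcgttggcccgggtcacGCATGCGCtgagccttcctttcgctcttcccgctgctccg
NDUFS6 and ATP5MC2 hold the NRF1 letters, the second as the reverse complement, and UQCRQ and COX5B the ETS letters. A promoter of 300 bases (250 before and 50 after the start) was found for 71 of the 91 members, whether tested or not. Shares are of genes, and a match at any start of a gene counted. The NRF1 letters GCGCATGC, on either strand, stood in 14 of the 71 (19.7%). The share was 3.68% of all 27305 genes with a promoter and 6.5% of the 10354 such genes tested here. The ETS letters CCGGAAGT stood in 16.9%, 4.95% and 10.1%, the YY1 letters AAGATGGC in 16.9%, 3.52% and 6.51%, and the letters TCAAGGTCA of the ERR family in 1.41%, 0.432% and 0.232%. None of these words contains another. A promoter was found for 29 of the 37 members that rose, under 80% of them, so a comparison of members that rose with those that did not is void. The NRF1 letters stood in 20.7% of these 29 and in 19% of the 42 other members with a promoter, which can include members not tested. A match of letters is a description and does not show that a factor bound there.

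After short-term knockdown 9 of 80 members rose and 0 fell, against 5.62% and 4.71% of all genes. The median log2 fold change of the members was 0.07, and 52 of 80 were above 0. Of the 8 kidney epithelium markers tested, GGT1 (0.51 ± 0.16) and PAX8 (0.33 ± 0.10) rose as well, with all 8 above 0 and a median of 0.34, and their part in the members' rise was not tested. Each of these 2 calls was lost in all 6 fits that left out a library. Their adjusted p rose to 0.181 and 0.196 without the third short-term nontarget library. At an unadjusted p below 0.05, 12 members were higher and 0 lower, and DESeq2 called 10 higher and 0 lower. The 9 were NDUFV3, NDUFS6, COX7A2L, COX5B, SDHA, ATP5MC3, COX7C, NDUFA10 and ATP5F1B. Without the first short-term knockdown library the median was 0.01 with 42 of 81 members above 0, and without the third it was 0.11 with 66 of 81.

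NDUFV3, an accessory subunit beside the NADH site, was at 10.9, 10.3 and 13.7 CPM in short-term nontarget libraries and at 19.9, 22.5 and 15.9 CPM after knockdown. NDUFS6, a zinc-binding accessory subunit of complex I, was at 71.9, 80.5 and 78.9 CPM against 115, 113 and 142 CPM. COX7A2L was at 96.0, 97.7 and 105 CPM against 167, 148 and 137 CPM. In each case all knockdown libraries were the higher ones. The log2 fold changes were 0.75 ± 0.16, 0.67 ± 0.12 and 0.60 ± 0.12, with adjusted p = 0.00503, 0.00139 and 0.00252.

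COX5B, a zinc-binding subunit of complex IV, was at 111, 136 and 113 CPM against 177, 156 and 193 CPM (0.55 ± 0.13, adjusted p = 0.00849). SDHA was at 168, 163 and 185 CPM against 233, 241 and 257 CPM (0.50 ± 0.09, adjusted p = 0.00147). Neither overlapped. Leaving out the first short-term nontarget library took the adjusted p of COX5B to 0.0566, while SDHA, NDUFV3, NDUFS6 and COX7A2L passed without any 1 library. ATP5F1B rose by 0.28 ± 0.08 (adjusted p = 0.0301), from 1088, 1096 and 1054 CPM to 1353, 1293 and 1298 CPM, and lost its call in 5 of 6 such fits, with an adjusted p of up to 0.108 without the third short-term nontarget library. The groups of ATP5F1B did not overlap.

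The members called at each time were set beside the genes around them, because 6 of the 9 short-term calls lay where neighbouring genes were higher too. For each member the median log2 fold change of its 40 nearest tested genes that are no members was taken. SDHA (chr5:218241-256700) and NDUFS6 (chr5:1801400-1816605) lie at the same end of chromosome 5, and their neighbours had a median of 0.47. COX7A2L, COX5B, ATP5MC3 and NDUFA10 lie on chromosome 2, where 926 other genes had a median of 0.31. Neighbour medians were 0.21, 0.28, 0.39 and 0.41 for these 4. The neighbours of NDUFV3 (0.03), ATP5F1B (0.01) and COX7C (−0.21) were not raised. Of these 3 genes, ATP5F1B lost its call in 5 of 6 fits that left out a library and COX7C in 4 of 6. The adjusted p of COX7C rose to 0.0847 without the first short-term knockdown library.

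**Figure D2:**
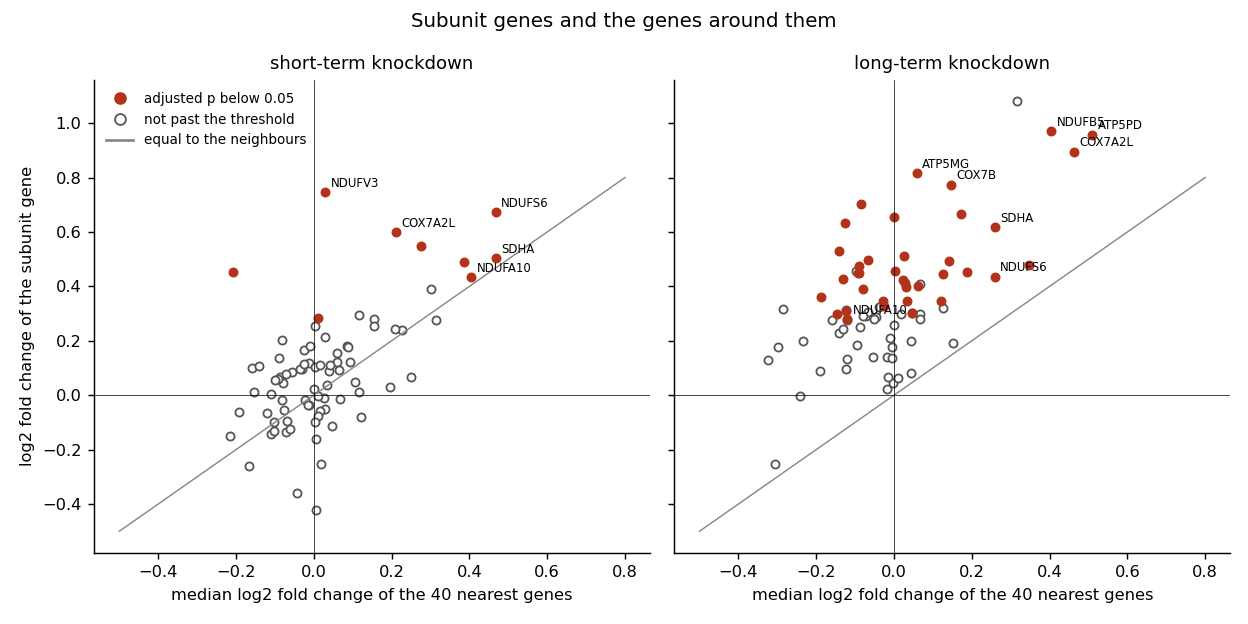
Log2 fold change of each member tested (vertical axis) against the median of its 40 nearest other genes (horizontal axis), short-term left and long-term right, with filled points past an adjusted p of 0.05 and a line where both are equal. Short-term, 54 of 80 members lie above the line and 6 of the 9 called have neighbours above 0.2, and long-term all 80 lie above it.

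Long-term, all 80 members lay above the median of their neighbours, by a median of 0.36. Of the 37 called, 6 had a neighbour median above 0.2, namely NDUFB5 (0.40), ATP5PD (0.51), COX7A2L (0.46), ATP5MF (0.35), SDHA (0.26) and NDUFS6 (0.26). For the other 31 the neighbours were at 0.19 or lower. The positions of members are not independent of each other, and what part of a member's rise its position carries was not tested.

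The interaction of knockdown and time (long-term effect minus short-term effect) passed for 12 members, all with the larger effect long-term, and for 0 members the other way. Of all genes, 4.98% passed in that direction and 8.43% in the other. Among the 12 were COX7B, ATP5PD, NDUFB5, NDUFA5, ATP5MG, NDUFA4, ATP5MF, NDUFB2, NDUFB6, NDUFC1 and UQCRQ, and the median over the 80 members was 0.25. At an unadjusted p below 0.05, 24 members were higher and 0 lower, and DESeq2 called 12 and 0. Here too neighbouring genes moved with members: 7 of the 12 (NDUFA4, NDUFA5, NDUFB5, NDUFC1, COX7B, ATP5MF and ATP5PD) had a neighbour median above 0.2, the highest being 0.47 for ATP5PD, against 0.18 for NDUFB2 and 0.03 for ATP5MG. On chromosome 7, which holds 4 of the 12, the median of 667 other genes was 0.31. Of the markers, LUM (3.70 ± 0.47) differed upwards and PDGFRB (−2.64 ± 0.64), EPCAM (−1.11 ± 0.26), PAX8 (−0.94 ± 0.15) and KRT18 (−0.54 ± 0.17) downwards in the same test. The part of position and of these markers in the members' differences was not tested.

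The 5 largest differences were 0.87 ± 0.25 for COX7B (adjusted p = 0.0291), 0.86 ± 0.23 for ATP5PD (0.0182), 0.85 ± 0.20 for NDUFB5 (0.00866), 0.85 ± 0.24 for NDUFA5 (0.0256) and 0.82 ± 0.18 for ATP5MG (0.00404), the bracketed values being adjusted p. In short-term cells none of the 5 had passed, with log2 fold changes of −0.10, 0.09, 0.12, −0.36 and 0.00. NDUFB5, for example, was at 85.0, 92.0 and 89.7 CPM in short-term nontarget and at 109.7, 99.1 and 80.5 CPM in short-term knockdown libraries, which overlapped. NDUFA5, an accessory subunit of the peripheral arm, was at 59.0, 57.4 and 56.6 CPM against 48.6, 41.2 and 45.1 CPM short-term and at 63.3, 37.9 and 38.3 CPM against 73.0, 70.0 and 52.9 CPM long-term, so that its knockdown libraries were lower short-term and overlapped the nontarget ones long-term.

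Only 3 of these 12, ATP5MG, NDUFB5 and NDUFB2, passed in all 12 fits that left out a library, and NDUFB2 shares most of its exon bases with genes on the other strand. The count fell to 3 without the first long-term knockdown library, where the adjusted p was 0.0523 for ATP5PD, 0.0815 for COX7B and 0.076 for NDUFA5. It was 4 without the second short-term nontarget library and 5 without the second long-term nontarget library. It was 6 without the third short-term nontarget, the second short-term knockdown, the third long-term nontarget or the second long-term knockdown library, 7 without the first short-term nontarget library, and 11 to 14 without any of the remaining 4.

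**Figure D3:**
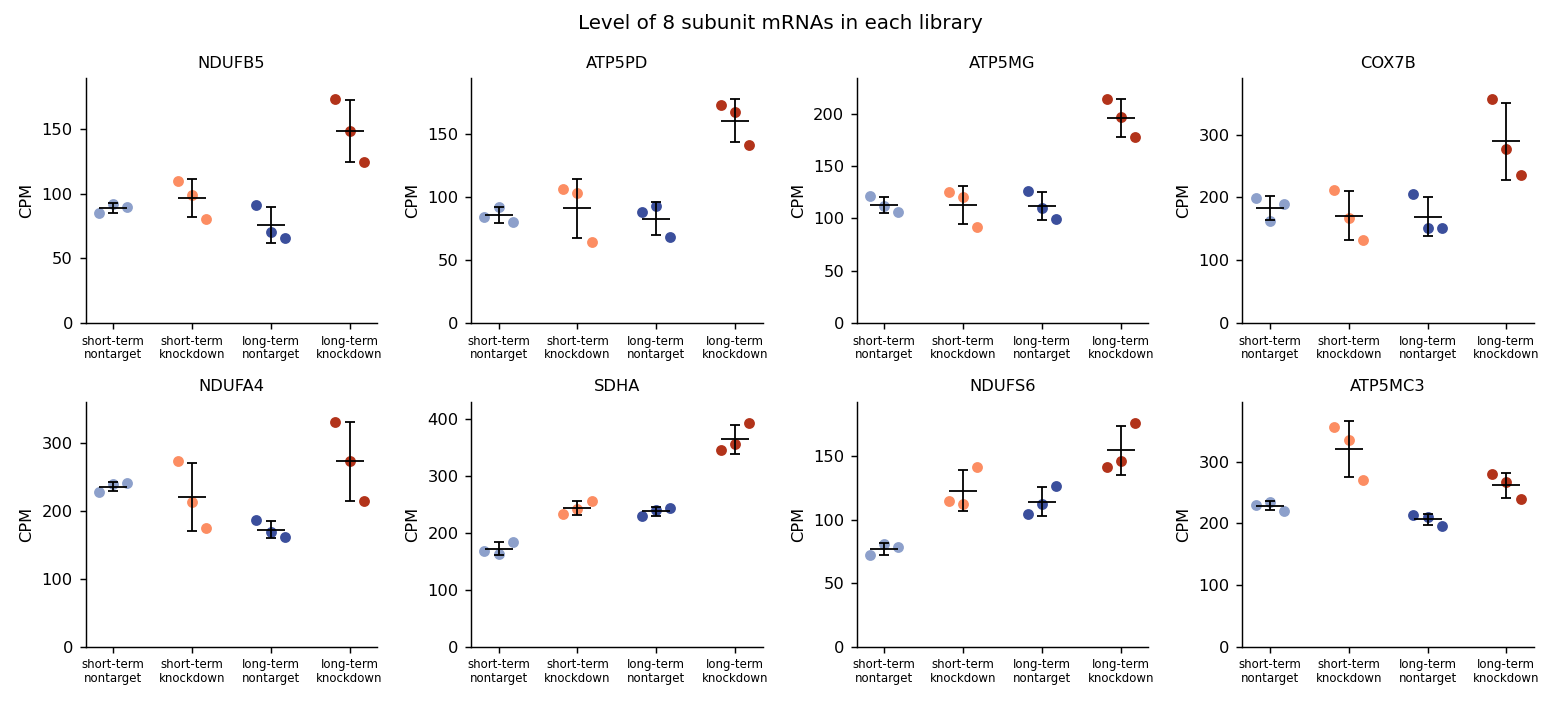
CPM (vertical axes, from 0) of NDUFB5, ATP5PD, ATP5MG, COX7B, NDUFA4, SDHA, NDUFS6 and ATP5MC3 in the 4 groups, with points for libraries and black lines for the mean ± SD of 3. The first 5 genes are highest after long-term knockdown and overlap between the short-term groups, SDHA and NDUFS6 are higher in every group than in short-term nontarget cells, and ATP5MC3 is highest after short-term knockdown.

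Against short-term nontarget cells, 2 of 80 members were higher and 1 lower in long-term nontarget cells. This is near or below the share of all genes, 3.17% higher and 4.38% lower, and the median was −0.05. Markers moved here too: LUM (−4.64 ± 0.36) fell and PAX8 (0.63 ± 0.10), CDH16 (0.73 ± 0.20) and KRT18 (0.44 ± 0.12) rose on the log2 scale, and their part in the members' changes was not tested. SDHA rose by 0.47 ± 0.09 (adjusted p = 0.00326), from 168, 163 and 185 CPM to 229, 239.6 and 244 CPM. NDUFS6 rose by 0.57 ± 0.12 (adjusted p = 0.00626), from 71.9, 80.5 and 78.9 CPM to 104, 112 and 126 CPM. Neither overlapped, and the 40 genes nearest to the 2 had a median of 0.54. ATP5MPL, a small membrane subunit of ATP synthase, fell by 0.43 on the log2 scale (SE 0.13, adjusted p = 0.0494), from 127, 124 and 120.3 CPM to 98.4, 93.5 and 84.4 CPM. Its call was lost in each of the 6 fits that left out a library, with an adjusted p of up to 0.166 without the third long-term nontarget library. ATP5MPL lies on chromosome 14, where 470 other genes had a median of −0.34, and the part of position in its fall was not tested.

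In cells with FLCN knockdown, 21 of 80 members were higher and 2 lower in long-term than in short-term libraries, against 11.5% and 15.2% of all genes, with a median of 0.21. The 5 largest rises were those of ATP5PD (0.81 ± 0.16), ATP5MG (0.80 ± 0.12), COX7B (0.76 ± 0.18), NDUFA2 (0.69 ± 0.12) and NDUFB5 (0.62 ± 0.14), with adjusted p from 0.000123 to 0.00449, and all 5 passed without any 1 library. NDUFA2, an accessory subunit with a thioredoxin fold, was at 30.4, 29 and 22.7 CPM short-term and at 44.8, 42.8 and 45.6 CPM long-term, without overlap. Markers moved in this comparison as well: CDH16 (1.55 ± 0.18) rose and PDGFRB (−1.74 ± 0.55), EPCAM (−1.31 ± 0.18), LUM (−0.94 ± 0.25) and PAX8 (−0.31 ± 0.10) fell on the log2 scale, and their part in the members' changes was not tested. This comparison shares its long-term libraries with the long-term knockdown comparison above, so the 2 are not separate evidence.

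The 2 members that were lower were ATP5MC3, an isoform of the subunit that forms the rotor ring, and NDUFA10, both on chromosome 2. ATP5MC3 was at 356, 335 and 269.9 CPM short-term and at 279.8, 266 and 239.8 CPM long-term, with groups that overlapped. NDUFA10 was at 127, 119 and 109.5 CPM against 97.0, 91.3 and 99.4 CPM, without overlap. They fell by 0.29 and 0.31 on the log2 scale (SE 0.10 and 0.09, adjusted p = 0.0481 and 0.0192), and their neighbours had medians of −0.32 and −0.41. Without the first short-term knockdown library neither passed (adjusted p = 0.217 and 0.0947), and the call was lost in 5 of 6 such fits for ATP5MC3 and in 3 of 6 for NDUFA10.

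The assembly factors, which build the complexes and are not part of them, were taken from fixed lists of known names. After long-term knockdown 4 of 16 tested factors of complex I, 1 of 4 of complex II, 1 of 6 of complex III, 9 of 21 of complex IV and 2 of 4 of complex V rose and 0 fell, beside 13.7% of all genes. After short-term knockdown the counts were 0, 0, 0, 1 and 1, with 0 lower, beside 5.62% and 4.71% of all genes, a share at which lists of this size hold few calls or none. The medians long-term were 0.29, 0.45, 0.22, 0.43 and 0.54. The assembly factors were not set beside the genes around them, and the part of position in their changes was not tested.

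Of the complex I factors COA1 (0.76 ± 0.11), NDUFAF7, a methyltransferase (0.75 ± 0.15), and NDUFAF6 (0.65 ± 0.17) had the largest rises long-term. SDHAF3 rose by 0.66 ± 0.19 and UQCC1, which stabilises nascent cytochrome b, by 0.70 ± 0.10. LRPPRC, which binds mitochondrial mRNAs, was at 231, 192 and 207 CPM without and at 371, 382 and 315 CPM with long-term knockdown (0.76 ± 0.11), and COA5 (0.75 ± 0.17) and COX20 (0.72 ± 0.17) followed among complex IV factors. LRPPRC was the factor called short-term, by 0.47 ± 0.11 (adjusted p = 0.0132), a call lost without the first or second short-term nontarget or the first short-term knockdown library (adjusted p of up to 0.097, without the first nontarget one). Adjusted p values of the 8 genes long-term lay between 4.23e-05 and 0.0145, and only the call of SDHAF3 was lost in a fit without 1 library (adjusted p = 0.125 without the first long-term knockdown library).

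ATPAF1, a chaperone of the F1 beta subunit, had the largest log2 fold change of the assembly factors after long-term knockdown. It was at 29, 31.3 and 31.3 CPM in short-term nontarget libraries and at 45.5, 45.5 and 40.9 CPM after short-term knockdown. In long-term nontarget libraries it was at 9.51, 5.88 and 7.63 CPM and after long-term knockdown at 24.6, 22.2 and 24.4 CPM. The knockdown libraries were the higher ones at each time, and both long-term groups were below both short-term groups. It rose by 1.62 ± 0.16 after long-term knockdown (adjusted p = 5.12e-07) and by 0.53 ± 0.13 after short-term knockdown (adjusted p = 0.0157), and it fell by 1.98 on the log2 scale in long culture of nontarget cells and by 0.89 in that of knockdown cells (adjusted p = 3.19e-07 and 9.43e-05). Its short-term call was lost in 4 of 6 fits without 1 library, with an adjusted p of up to 0.0843 without the first short-term nontarget library, and the other 3 were not. The second complex V factor called long-term, FMC1 (0.96 ± 0.33, adjusted p = 0.0374), lost its call without any of the 6 libraries and was not called by DESeq2 (adjusted p = 0.103).

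Of the 4 mobile carrier and supercomplex genes, 2 rose and 0 fell after long-term knockdown, beside 13.7% and 15.8% of all genes. CYCS, the cytochrome c that carries electrons from complex III to complex IV, was at 221, 139 and 169 CPM in long-term nontarget and at 309, 277 and 285 CPM in long-term knockdown libraries. HIGD2A, a factor of complex IV and of supercomplexes, was at 31.6, 38.1 and 29.8 CPM against 61.6, 63.2 and 65.3 CPM. Neither overlapped, and they rose by 0.72 ± 0.13 and 0.94 ± 0.12 (adjusted p = 0.000522 and 9.07e-06). After short-term knockdown HIGD2A alone of the 4 passed (0.51, adjusted p = 0.00847), beside 5.62% of all genes. That call was lost in 1 of 6 fits, without the first short-term knockdown library (adjusted p = 0.052).

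The 13 protein genes of the mitochondrial genome code for the subunits made inside the organelle. Of these 9 rose and 0 fell after long-term knockdown (13.7% and 15.8% of all genes), with a median of 0.51, and 0 passed in either direction after short-term knockdown (5.62% and 4.71% of all genes), with a median of −0.16. In long culture of nontarget cells 0 rose and 8 fell (3.17% and 4.38% of all genes), with a median of −0.61, and in long culture of knockdown cells 1 rose and 2 fell, shares near those of all genes (11.5% and 15.2%). The markers that moved in each of these comparisons are given above, and their part in the changes of the mitochondrial genes was not tested. These counts depend on single libraries: the 9 became 4 without the first long-term knockdown or the second long-term nontarget library, and the 8 became 3 without the second long-term nontarget library. MT-ND5 was at 1595, 1579.7 and 1421 CPM in short-term nontarget, 1699, 1663 and 1688 CPM in short-term knockdown, 869, 707 and 752 CPM in long-term nontarget and 1672, 1286 and 1047 CPM in long-term knockdown libraries. Its long-term nontarget libraries were lower than all others. The log2 fold change after long-term knockdown was 0.78 ± 0.13 for MT-ND5, 0.77 ± 0.13 for MT-CO1 and 0.71 ± 0.13 for MT-ND6 (adjusted p = 0.000246, 0.000274 and 0.000354), and in long culture of nontarget cells these 3 fell by 0.98, 0.66 and 1.02. The 13 genes summed to 38170 to 40468 CPM in short-term nontarget, 32632 to 38557 CPM in short-term knockdown, 24587 to 30900.1 CPM in long-term nontarget and 32974 to 48319 CPM in long-term knockdown libraries.

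The 2 sums stood differently across long culture of nontarget cells. The summed nuclear level was 9118 ± 287 CPM in long-term and 9337 ± 152 CPM in short-term nontarget libraries, with ranges that overlapped, whereas every long-term nontarget library was below every short-term nontarget library in the mitochondrial sum. The difference between the gene sets was not tested.

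Of 12 regulators, 3 rose and 0 fell after long-term knockdown, against 13.7% and 15.8% of all genes. PPARGC1A, a coactivator known to raise transcription of nuclear genes for mitochondria, was at 23.6, 21.1 and 32.4 CPM in short-term nontarget and at 42.9, 44.5 and 39.99 CPM in short-term knockdown libraries. It was at 26.0, 20.8 and 18.2 CPM in long-term nontarget and at 56.4, 70.4 and 52.4 CPM in long-term knockdown libraries. Its knockdown libraries were higher at each time. The log2 fold change was 0.73 ± 0.17 short-term and 1.46 ± 0.17 long-term (adjusted p = 0.00852 and 3.33e-06), and the short-term call was lost in 2 of 6 fits without 1 library, with an adjusted p of up to 0.061 without the second short-term nontarget library. TFB1M (0.91 ± 0.26, adjusted p = 0.0139) and TFB2M (0.47 ± 0.10, adjusted p = 0.00136), a methyltransferase of mitochondrial ribosomal RNA and a mitochondrial transcription factor, were the other two, and the call of TFB1M was lost in 2 of 6 such fits, with an adjusted p of up to 0.0687 without the first long-term knockdown library.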

How the data were processed

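In all, 12 libraries of HK2 cells were sequenced by the authors with an unstranded poly(A) kit on a MiSeq instrument, trimmed with fastp, aligned with STAR to GRCh38 and counted per gene with featureCounts. Tool versions, annotation release and strand setting are not given in the sources used here. The authors deposited raw counts per gene, which were tested here. They also deposited normalised values rounded to whole numbers (a score, from DESeq2), which were not tested.

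Gene IDs were matched to GENCODE 29, 55619 of 58288 with the same version and 2361 with another. Genes were filtered with filterByExpr over the 4 groups, scaled by TMM, and fitted with edgeR 4.0.16 (R 4.3.3, robust quasi-likelihood test, prior count 0.125) over all 12 libraries. In all, 5 contrasts were tested, and p was adjusted by Benjamini-Hochberg over 13959 genes with a threshold of 0.05. CPM were TMM-scaled. The 12 libraries held 5825779 to 8991051 counts (median 6837564), and the biological coefficient of variation was 12.0%. In simulated data, changes of 1.5-fold were called in 69% of changed genes short-term and long-term and in 11% for the interaction, and 3-fold changes in 100%.

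Members and lists were chosen with earlier results of these data known. Named members are the core subunits, the isoform pairs, the 5 of largest change in each direction with a mean of at least 50 counts, and the highest and lowest level. Others in the text belong to a set counted there or were chosen after their values were seen. Some items are not reported here. Same-numbered libraries were checked for shared deviations from their group means. The correlation was 0.284, 0.123 and 0.458 between the long-term groups and 0.223, 0.292 and 0.455 between the knockdown groups, so numbers pair these, but 0.0172, 0.111 and 0.054 between the short-term groups. Replicates of a group differed by more than sampling noise (chi-square per degree of freedom 2.07 to 11.9). Alternatives were RLE factors, DESeq2 1.42.0, other filters, a replicate block, fits of the compared groups alone and fits without each library.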

Additional observations from a re-analysis of the deposited data

Results flagged for a closer look

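The effect of knockdown differed between long-term and short-term cells in the interaction test for 12 members, each with the larger effect long-term. Among these the difference in log2 fold change was 0.87 for COX7B, 0.86 for ATP5PD, 0.85 for NDUFB5, 0.85 for NDUFA5, 0.82 for ATP5MG, 0.76 for NDUFA4, 0.64 for ATP5MF, 0.58 for NDUFB2, 0.57 for NDUFB6, 0.56 for NDUFC1 and 0.51 for UQCRQ. The adjusted p (edgeR's quasi-likelihood test) of these lay between 0.00404 and 0.0404, and NDUFC1 was not called by DESeq2 (adjusted p = 0.0547). Of all genes, 4.98% passed with a positive difference and 8.43% with a negative one. The count of 12 members became 3 without the first long-term knockdown library.

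Among assembly factors the same test passed for ATPAF1 (1.09), COA1 (0.86), COA5 (0.75), UQCC1 (0.68), TACO1 (0.65), which acts in translation of MT-CO1, and COA3 (0.54). ATPAF1, COA1 and UQCC1 passed in all 12 fits that left out a library, whereas COA5, TACO1 and COA3 lost their calls in 10, 9 and 10 of them. Of the 13 genes of the mitochondrial genome, 6 passed upwards and 0 downwards, beside 4.98% and 8.43% of all genes. The 6 became 2 in several of these fits, 1 of them without the first long-term knockdown library. MT-CO2 (1.11), MT-CO1 (0.88) and MT-ATP8 (0.76) had the largest differences. MT-ATP8 lost its call in 7 of 12 such fits, with an adjusted p of up to 0.0824 without the first long-term knockdown library. Of the regulators, TFB2M (0.61) passed in all 12 and PPARGC1A (0.74) lost its call in 9, with an adjusted p of up to 0.145 without the third short-term nontarget library.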

How the results depend on the processing

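No named member reversed in a call, and the scaling moved the median of all genes by less than 0.005 (log2) with RLE factors. Without each library in turn, members called higher numbered 6 to 11 short-term, 26 to 41 long-term, 2 to 2 in long culture of nontarget cells, 15 to 24 in that of knockdown cells and 3 to 14 for the interaction, and members called lower 0 to 0, 0 to 0, 0 to 1, 0 to 3 and 0 to 0. At an adjusted p below 0.01, 22 were higher long-term and 2 for the interaction, and none was lower in either long culture (0). With the replicate block, 50 were higher long-term (17.4% of all genes) and 20 for the interaction (8.58%), against 12 without it, 1 was lower short-term and 3 in long culture of nontarget cells. In the pairs the numbers did not link (short-term groups, nontarget groups) the block is a description only, and 10 of 12 libraries correlated best with their own number. In fits of the 2 compared groups alone, 1 was lower short-term, 3 in long culture of nontarget and 0 in that of knockdown cells. Members lower in long culture of nontarget cells numbered 0 with RLE factors, 2 with no filter and 0 at a mean of 10 CPM, and those lower in that of knockdown cells 0 with no filter. With the block COX6A1 (adjusted p = 0.0189), COX7A2 (0.0432) and NDUFA4 (0.0289) passed in long culture of knockdown cells. Counts of single lists without a library were added after seeing the data. The cause of these shifts was not tested.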
